A study of Mus musculus with 2 samples.

Results

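NRF1, nuclear respiratory factor 1, was mapped by chromatin immunoprecipitation followed by sequencing (ChIP-seq) in mouse skeletal muscle, and the deposited list holds 3226 peaks, that is, stretches of DNA where fragments bound by the protein pile up. The peaks described here are the 407 (12.6%) whose summit, the point of highest signal, lies in the upstream part of a promoter. A peak was kept when the nearest transcription start of a known RefSeq transcript was 150 to 1000 bp from the summit and the summit was upstream of it along the strand of the gene. Peaks in the promoters of 2 or more protein-coding genes were left out, a promoter being 1000 bp before to 100 bp after a start, and 18 peaks at the right distance were lost in this way. The rule used position only, so neither the strength of a peak nor its sequence entered the choice. The labels give 2 libraries, both made with an NRF1 antibody from skeletal muscle of wild-type mice, and the study worked with nuclear extracts of male mice, 9 weeks old where it gives an age for the NRF1 data. No treatment is named, and the study gives a general minimum of mice per condition but not the number behind this list. The peaks in the list also differ in number from the NRF1 sites counted in the text of the study, so another version of the list may lie behind that text. The extract came from whole muscle, so nuclei of cells other than myofibers were included. The peaks form 1 list, whose peak names carry the title of the library of replicate 1, while a form published with the study lists the other library, replicate 2, as the NRF1 input, which conflicts with its label. There is therefore no replicate error, and each interval and p-value below covers only the spread or counting error over peaks of this list. The read depth is not in the list and is unknown here.

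NRF1 is a transcription factor that binds as a dimer to a GC-rich palindrome, and methylation of the CpG dinucleotides in that sequence hinders its binding. It is best known for driving nuclear genes of the mitochondrial respiratory chain, and it also occupies promoters of housekeeping genes outside mitochondria. Most vertebrate promoters that it binds are CpG islands, in which transcription often starts at several positions spread over a stretch of DNA rather than at a single base. In skeletal muscle, a tissue rich in mitochondria, it is known for its part in making new mitochondria.

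The sequences at the strongest peaks show what the motif search found. The motif was the 10-base palindrome GCGCATGCGC with at most 1 mismatch, looked for on either strand up to 100 bp from the summit. The lines below give 50 bases around the copy nearest to the summit, read 5′ to 3′ along the gene, from RefSeq GRCm38.p6 (mm10), with the copy in capitals. They are 7 of the strongest peaks with the motif, with no exon of a known transcript in the window, and their signal was 28.4 to 35.8 times the background.
Odc1 (chr12:17544672-17544721, plus strand): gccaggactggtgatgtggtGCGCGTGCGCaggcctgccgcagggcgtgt
Spen (chr4:141538757-141538806, minus strand): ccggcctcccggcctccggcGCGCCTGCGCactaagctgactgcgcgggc
Eif5a (chr11:69921486-69921535, minus strand): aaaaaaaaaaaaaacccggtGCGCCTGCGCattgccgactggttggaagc
Hint3 (chr10:30618441-30618490, minus strand): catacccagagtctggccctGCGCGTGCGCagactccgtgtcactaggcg
Vkorc1l1 (chr5:129941859-129941908, plus strand): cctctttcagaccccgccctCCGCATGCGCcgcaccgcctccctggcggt
Hmgn1 (chr16:96128145-96128194, minus strand): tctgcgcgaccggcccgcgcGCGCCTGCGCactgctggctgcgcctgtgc
Sf1 (chr19:6363453-6363502, plus strand): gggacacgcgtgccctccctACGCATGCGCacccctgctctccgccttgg

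The copy shown has 1 mismatch in each of these 7 windows, which does not hold for all strong peaks, since Nup50, Map3k2 and Ndufa13 held exact palindromes. With positions counted from 1 at the 5′ end of the palindrome, Spen, Eif5a and Hmgn1 carry T6G and Odc1 and Hint3 carry T6C, in each case read on the opposite strand. Vkorc1l1 carries G1C and Sf1 carries G1A, both outside the central pair of bases.

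Several copies stood side by side at a few peaks. Of the 407 peaks, 5 held 3 copies, and their windows below run from 20 bases before the first copy to 20 bases after the last, with each copy in capitals.
Nup50 (chr15:84923188-84923352, plus strand): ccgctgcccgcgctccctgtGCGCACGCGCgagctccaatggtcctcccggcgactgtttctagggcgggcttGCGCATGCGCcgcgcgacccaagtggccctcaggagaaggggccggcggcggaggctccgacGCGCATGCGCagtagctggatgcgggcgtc
Ubr4 (chr4:139380372-139380479, plus strand): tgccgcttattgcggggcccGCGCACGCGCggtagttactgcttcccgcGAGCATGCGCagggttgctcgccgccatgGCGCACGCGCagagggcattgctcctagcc
Pou2f1 (chr1:166002807-166003019, minus strand): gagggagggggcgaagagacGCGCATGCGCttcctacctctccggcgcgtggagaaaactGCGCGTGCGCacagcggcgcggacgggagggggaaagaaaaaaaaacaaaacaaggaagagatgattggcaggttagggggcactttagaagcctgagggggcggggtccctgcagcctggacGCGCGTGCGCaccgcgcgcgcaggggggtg
Kdm5c (chrX:152232827-152232972, plus strand): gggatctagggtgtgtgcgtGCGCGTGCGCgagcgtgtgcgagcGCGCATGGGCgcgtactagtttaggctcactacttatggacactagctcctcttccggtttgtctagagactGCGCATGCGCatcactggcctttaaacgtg
Dusp22 (chr13:30659852-30659952, plus strand): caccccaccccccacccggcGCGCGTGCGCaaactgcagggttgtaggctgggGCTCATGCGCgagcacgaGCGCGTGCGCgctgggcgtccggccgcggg

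Nup50, a nuclear pore protein, had a peak of 33.6-fold enrichment 194 bp upstream of its start, with copies centred 215, 162 and 100 bp upstream. The pair nearer to the start were both exact palindromes. Ubr4, an N-recognin E3 ubiquitin ligase, had a 27.6-fold peak at 253 bp and copies at 262, 233 and 204 bp, each with 1 mismatch. Pou2f1, the octamer-binding factor Oct-1, had a 26.2-fold peak at 287 bp, and its copy farthest from the start was exact. Kdm5c, an X-linked H3K4 demethylase, had a 12.5-fold peak at 305 bp with the exact copy nearest to the start. Dusp22, a dual-specificity phosphatase, was the weakest of the 5 at 9.82-fold, 181 bp upstream.

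Strong signal also lay over sequence without the motif. The 3 strongest peaks of this kind are shown as 101 bases centred on the summit, all in lower case since no copy with at most 1 mismatch lies within 100 bp.
Txndc11 (chr16:11134649-11134749, minus strand): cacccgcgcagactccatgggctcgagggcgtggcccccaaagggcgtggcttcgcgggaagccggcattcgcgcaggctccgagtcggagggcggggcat
Zbed4 (chr15:88751390-88751490, plus strand): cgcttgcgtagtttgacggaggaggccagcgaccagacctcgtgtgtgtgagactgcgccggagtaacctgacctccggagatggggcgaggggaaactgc
Otulin (chr15:27630807-27630907, minus strand): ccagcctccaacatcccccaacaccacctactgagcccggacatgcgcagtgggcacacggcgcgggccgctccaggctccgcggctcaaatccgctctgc

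Txndc11, a thioredoxin-domain protein of the endoplasmic reticulum, had a 36.8-fold peak 167 bp upstream of its start. Zbed4, a BED-type zinc finger protein, reached 29.3-fold at 271 bp. Otulin, a deubiquitinase that cleaves linear ubiquitin chains, reached 27.8-fold at 164 bp. Together with Phf12, Nbeal1, Cox7a2l, Msl2 and Tmem65 they made up the 8 peaks of at least 20-fold enrichment that had no copy.

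Reading these windows prompted a search, chosen after the sequences had been seen, for TGCGCA, a palindrome of 6 bases made of the last 5 bases of the motif and an A after them, which the exact motif does not itself contain. Among the 173 upstream peaks without the motif, 51 (29.5%, Wilson 95% interval 23.2 to 36.7%) held it within 25 bp of the summit. In the outer parts of the same windows, 76 to 100 bp from the summit on either side, 6 of 173 (3.47%, 1.60 to 7.36%) held it. The start-proximal peaks without the motif gave 153 of 615 (24.9%) near the summit and 8 of 615 (1.30%) in the outer parts. Upstream peaks with the motif held it near the summit in 83 of 234 cases (35.5%, 29.6 to 41.8%). The word was thus more frequent near the summits than in the outer parts in each of these groups without the motif, as a description with no test.

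Fold enrichment, the ratio of the signal at the summit to the local background as the peak caller gave it, ranged from 3.15 to 38.1 over the 407 peaks. Its median was 9.98, with quartiles of 6.97 and 14.7. The median -log10 q-value was 21.1, where q is the p-value of a peak corrected for the number of positions tested, and the median width was 289 bp. In all, 45 peaks (11.1%, 8.37 to 14.5%) reached 20-fold. Of the 407 peaks, 2 had a q-value above 0.01, the limit that the methods of the study name.

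The summits crowded toward the inner limit. The median distance upstream was 240 bp, with quartiles of 184 and 355 bp. A band of 150 to 199 bp held 134 peaks, and bands of 200 to 249 and 250 to 299 bp held 85 and 57. A further 78 peaks lay at 300 to 499 bp and 53 at 500 to 1000 bp, so the counts fell steeply with distance.

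**Figure D1:**
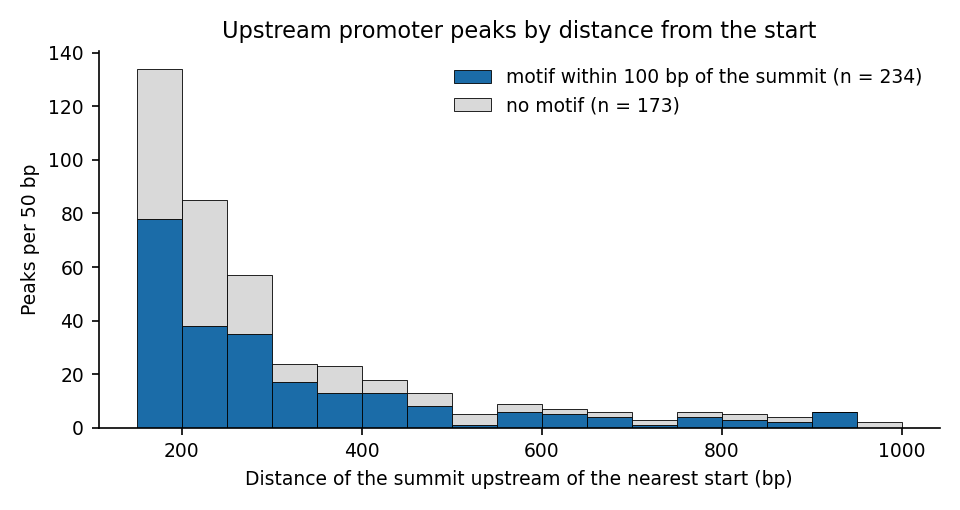
Number of upstream promoter peaks per 50 bp (vertical axis) against the distance of the summit upstream of the nearest start in bp (horizontal axis), with peaks that hold the motif within 100 bp of the summit in blue (n = 234) and the others in grey (n = 173). The first bar, 150 to 199 bp, holds 134 peaks, of which 78 have the motif.

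Just inside the inner limit, the peaks of Pwp2, Dus1l, Fam91a1 and Eef1a1 lay exactly 150 bp upstream. Their enrichments were 5.70, 8.74, 7.87 and 10.1-fold. Strn3, Rnf44 and Pdcd4 followed at 151 bp with 12.0, 6.89 and 12.7-fold enrichment. Just outside, at 149 bp, the peaks of Cyth1, Acadm, Wwp1, Dync1li1 and Pdha1 had 25.3, 14.5, 24.7, 32.8 and 4.81-fold. The limit cuts through a continuous distribution of peaks, and the values on its sides overlapped.

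At the outer end, Plcb4, a phospholipase C, had a summit 979 bp upstream with 3.58-fold enrichment and no motif. Yy1, a zinc finger transcription factor, lay at 962 bp with 5.49-fold and no motif. Smim27 lay at 931 bp with 11.5-fold and an exact palindrome 954 bp upstream of the start. The noncoding gene 4930449E18Rik lay at 924 bp with 6.73-fold and 1 copy. Rbpj (chr5:53589264-53589623), the DNA-binding effector of Notch signalling, lay at 922 bp with 16.1-fold and 1 copy. Just beyond the limit, Ccdc114 at 1006 bp had 18.8-fold and Cdc14a at 1011 bp had 9.03-fold. Strong peaks were thus found on each side of the outer limit too.

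A known RefSeq start is not the only candidate start near these summits. Predicted RefSeq transcripts began within 150 bp of 114 of the 407 summits, 107 of them with such a start on the strand of the gene and 14 on the opposite strand. GENCODE transcripts began within 150 bp of 108 summits, 90 on the same strand and 21 on the opposite one. Either annotation placed a start there for 180 peaks (44.2%), which leaves 227 peaks with no annotated start within 150 bp in any of the sets used. The 180 peaks had a median enrichment of 10.8-fold and held the motif in 58.9% (51.6 to 65.8%). The 227 others had a median of 9.54-fold and held it in 56.4% (49.9 to 62.7%). Their motif shares overlapped within the intervals.

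Summits lay outside every known transcript in 357 peaks (87.7%), in an intron in 33 and in an exon in 17, and in the last 2 cases the transcript may belong to the same gene or to another. The peak reached across the start itself in 63 cases. These 63 peaks had a median of 14.2-fold and held the motif in 73.0% (61.0 to 82.4%), against 9.44-fold and 54.7% (49.4 to 59.8%) for the 344 that ended before it. A wide peak reaches farther, and fold enrichment and width come from the same signal, so this contrast is given without a test.

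The nearest start belonged to a protein-coding transcript in 382 peaks and to a noncoding one in 25. In all, 405 different genes were nearest to a peak. Of 21000 protein-coding genes, 380 (1.81%) had an upstream peak by this rule, while 2804 (13.4%) had a peak anywhere in a promoter. Only Rap2a and Zdhhc8 had 2 upstream peaks each. Rap2a, a small GTPase of the Ras family, had a 3.15-fold peak without the motif at 236 bp and a 12.0-fold peak with a copy at 908 bp. Zdhhc8, a palmitoyltransferase, had a 5.29-fold peak without the motif at 200 bp and a 9.81-fold peak with a copy at 478 bp. In each of these genes the peak farther from the start was the stronger, and it was the one with the motif. Another 18 peaks shared their start with a second peak under 150 bp from it, and these 18 had a median enrichment of 8.39-fold.

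The strongest of the 407 upstream peaks, at 38.1-fold and 178 bp upstream, was that of Map3k2 (chr18:32162757-32163149), a kinase of the MAP kinase cascade, and it held 2 copies including an exact palindrome. Odc1, the rate-limiting enzyme of polyamine synthesis, followed Txndc11 with 35.8-fold at 184 bp. Spen, a transcriptional corepressor, had 31.9-fold at 167 bp. Eif5a, a translation factor that carries the polyamine-derived residue hypusine, had 31.7-fold at 219 bp, with its copy 94 bp from the summit toward the start.

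Hint3, a histidine triad nucleotide-binding protein, had 31.0-fold at 155 bp. Vkorc1l1, a vitamin K epoxide reductase, had 29.7-fold at 224 bp with its copy 1 bp from the summit. Hmgn1, a nucleosome-binding protein, had 28.6-fold at 439 bp, and its copy lay 6 bp from the summit. Among the 20 strongest peaks only those of Hmgn1 and Ndufa13 had a summit over 300 bp from the start. The rest of the 20 were the peaks of Sf1 (28.4-fold), 2610507B11Rik (27.9), Zbtb41 (27.5), Cyb5r4 (26.5), the noncoding gene B330016D10Rik (26.0) and Ppp2ca (25.6), besides those named above. The motif was present in 17 of the 20.

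**Figure D2:**
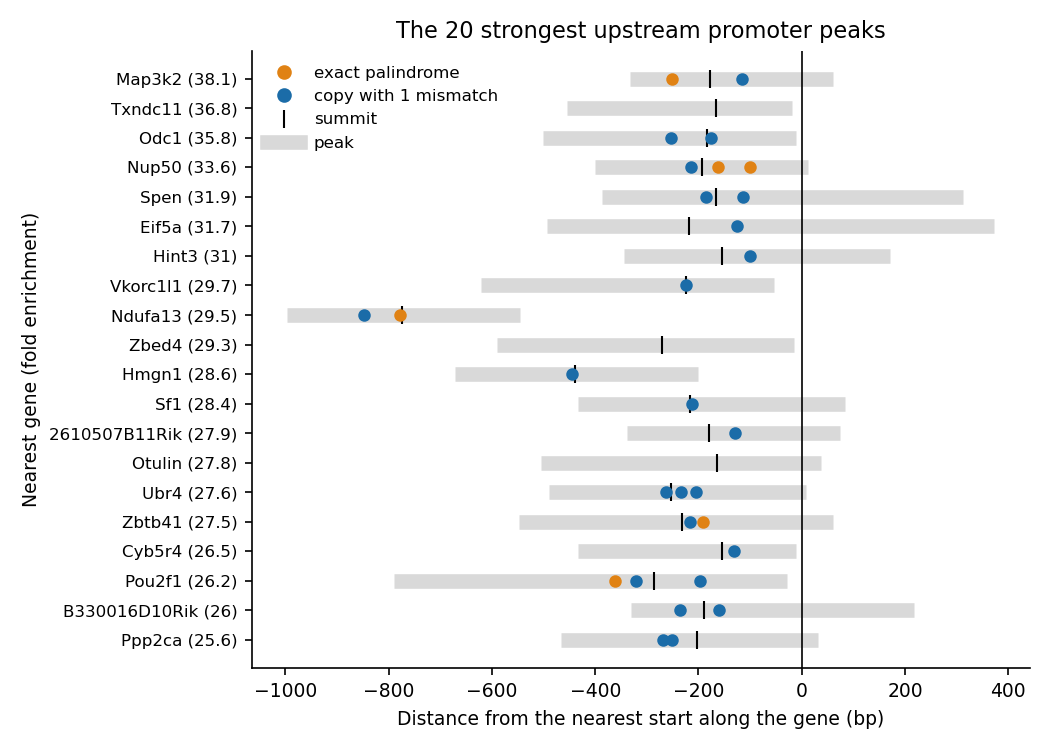
The 20 upstream promoter peaks with the highest fold enrichment (given in brackets after the gene), drawn to scale along the gene, with the distance from the nearest start in bp on the horizontal axis and upstream to the left of 0. Grey bars are peaks, black ticks are summits, orange points are exact palindromes and blue points are copies with 1 mismatch, and Txndc11, Zbed4 and Otulin have no point.

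At the other end of the range, the weakest upstream peaks were those of Rap2a (3.15-fold), Flvcr2 (3.41), Plcb4 (3.58), Wdr62 (3.70) and Ago2 (4.10). Flvcr2 is a membrane transporter, Wdr62 a centrosomal protein and Ago2 the slicer Argonaute of RNA interference. Of these 5, only the peak of Wdr62 held the motif.

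Of the 407 peaks, 234 (57.5%, Wilson 95% interval 52.6 to 62.2%) held the motif. In windows of the same 201 bp centred 240 bp upstream of each of 31603 known starts, 657 (2.08%) held it, and 83 (0.263%) held the exact palindrome. These windows were not matched to the peaks for GC content or CpG ratio. The exact palindrome was found in 35 peaks (8.60%, 6.25 to 11.7%). With up to 2 mismatches, 357 peaks (87.7%) held a copy, so 50 peaks had none even then. The copies were close to the summits. The nearest copy had a median distance of 15 bp from the summit, and in 159 of the 234 peaks (67.9%) it was within 25 bp. It lay toward the start in 111 peaks, away from it in 120 and at the summit in 3, with no side favoured. In 208 of the 234 peaks every copy was itself at least 150 bp from the start.

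The 234 peaks held 267 copies, of which 36 were exact and 231 had 1 mismatch. The mismatch fell in the central pair of bases, 2 of the 10 positions, in 159 of the 231 (68.8%). How often copies with such a mismatch occur in unbound sequence of the same composition was not tested. The word GCGCAGGCGC, T6G, was found in 70 peaks (17.2%), with a median enrichment of 13.2-fold. GCGCACGCGC, T6C, was found in 63 peaks (15.5%), with a median of 13.5-fold. ACGCATGCGC, G1A, was found in 25 peaks with a median of 10.7-fold. GCGCAAGCGC, T6A, was in 17 peaks and GAGCATGCGC, C2A, in 16, with medians of 12.0 and 11.6-fold. Each word was counted on both strands, and a peak can hold more than 1.

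Peaks with the motif were stronger than peaks without it. The median was 12.2-fold (quartiles 8.48 and 16.5) for the 234 with it and 8.04-fold (5.70 and 10.8) for the 173 without. In a linear model of log2 fold enrichment over all 3226 peaks with robust standard errors, the difference was 0.54 (95% interval 0.41 to 0.67), with a Benjamini-Hochberg adjusted p of 3.471e-14 over the 15 tests made. The ranges overlapped widely. The order followed the number and closeness of the copies, given here as a description. Peaks with no copy even with 2 mismatches (n = 50) had a median of 5.69-fold, and those with a 2-mismatch copy only (n = 123) had 8.58-fold. Peaks with 1 copy (n = 206) had 11.7-fold and those with 2 or more (n = 28) had 20.1-fold. The 35 peaks with an exact palindrome had 15.1-fold.

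**Figure D3:**
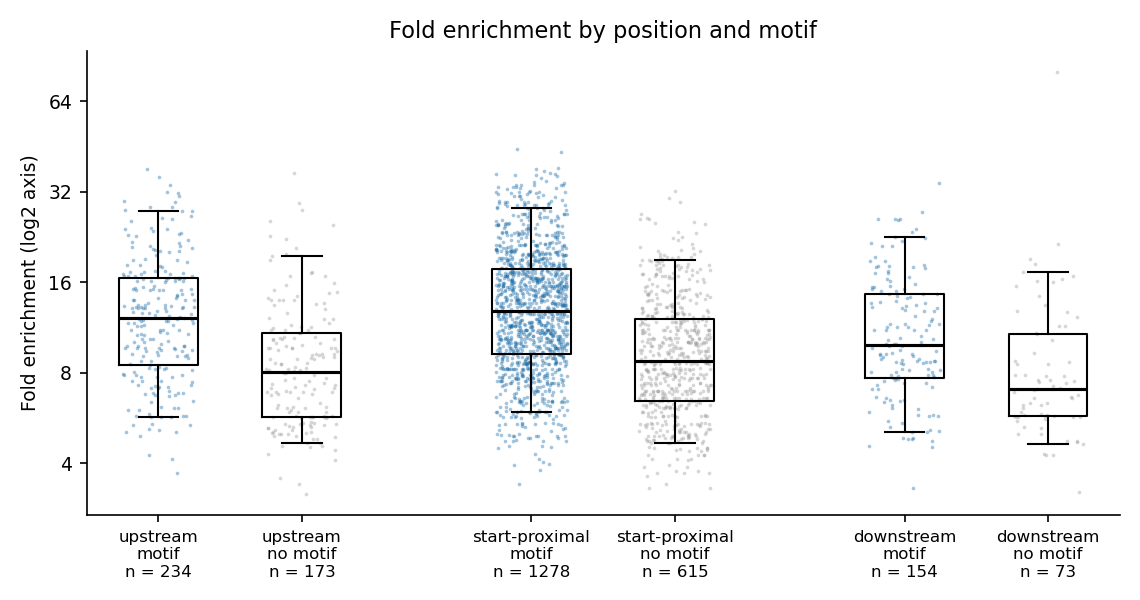
Fold enrichment (vertical axis, log2 scale) of upstream, start-proximal and downstream peaks, each split by presence of the motif. Points are peaks, boxes give the quartiles and the median, and whiskers run from the 5th to the 95th percentile. Upstream peaks with the motif (n = 234) have a median of 12.2-fold and those without it (n = 173) 8.04-fold.

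The 1893 start-proximal peaks, with a summit under 150 bp from the nearest start on either side, were the natural comparison. Of these, 1278 (67.5%, 65.4 to 69.6%) held the motif, against 57.5% upstream. The odds ratio was 0.65 (0.52 to 0.81), and the share was lower upstream by a two-sided Fisher's exact test (p = 0.0001418, adjusted p = 0.0006867). Counting exact palindromes alone, 214 of 1893 (11.3%) had one against 8.60% upstream, an odds ratio of 0.74 (0.51 to 1.07) that did not pass the test by Fisher's exact test (adjusted p = 0.169). With up to 2 mismatches the odds ratio was again 0.65, with an adjusted p of 0.0505. The word T6G was found in 24.2% of start-proximal peaks and 17.2% of upstream peaks, and 2 or more copies in 11.0% and 6.88%. The nearest copy was within 25 bp of the summit in 78.6% of the start-proximal peaks with the motif, against 67.9% upstream.

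Upstream peaks were also slightly weaker. The start-proximal median was 11.1-fold against 9.98-fold, a difference of -0.15 in mean log2 fold enrichment (-0.23 to -0.07, n = 407 and n = 1893, adjusted p = 0.0006867 in the linear model). This difference was lost when the inner limit was set to 100 bp (-0.06, n = 657, adjusted p = 0.188) and when the centre of the peak replaced its summit (-0.04, adjusted p = 0.439). It was -0.10 with the motif as a covariate (adjusted p = 0.0220, n = 407 and n = 1893) and -0.23 without the 180 peaks near other annotated starts (adjusted p = 1.834e-05, n = 227 and n = 1893). The share at 20-fold or more was 12.5% for start-proximal peaks and 11.1% upstream, and the intervals overlapped.

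Sequence composition differed in the same direction. The 201 bases around the summit had a mean GC content of 65.3% (SD 8.96) upstream and 67.0% (SD 7.02) at start-proximal peaks, a difference of -1.74 percentage points (-2.66 to -0.81, n = 407 and n = 1893, adjusted p = 0.0007416). This call was lost in windows of 200 bp on each side of the summit (-0.91 points, n = 407 and n = 1893, adjusted p = 0.103), and the difference was -3.44 points without the 180 peaks near other annotated starts. The CpG ratio, observed CpG over the number that the C and G content predicts, was 0.873 (SD 0.202) against 0.928 (SD 0.175). Its difference was -0.05 (-0.08 to -0.03, same n = 407 and n = 1893, adjusted p = 2.957e-06). Peak width did not pass the test, with a log2 difference of -0.02 (-0.09 to 0.04, n = 407 and n = 1893, adjusted p = 0.500). The group remained CpG-rich and close to the start-proximal peaks in composition.

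The rule on shared promoters does not treat both sides of a start alike, since a promoter ends 100 bp after it. The 227 downstream peaks, 150 to 1000 bp past a start, lie at the same distances as the upstream group but on the other side. They held the motif in 154 cases (67.8%, 61.5 to 73.6%), an odds ratio of 0.64 (0.46 to 0.90) for upstream against downstream peaks by a two-sided Fisher's exact test (p = 0.0109, adjusted p = 0.0271). This call was lost under 8 of 16 alternatives, among them inner limits of 100 and 200 bp and GENCODE starts. The downstream median of 8.82-fold lay below the upstream one, and the difference of 0.11 in log2 fold enrichment (-0.01 to 0.23) did not pass the test (n = 407 and n = 227, adjusted p = 0.135). It did pass with the motif as a covariate (0.16, n = 407 and n = 227, adjusted p = 0.0125), and it was 0.03 (n = 227 and n = 227, adjusted p = 0.681) without the 180 peaks near other annotated starts. GC content (-0.65 points, -1.96 to 0.66), CpG ratio (-0.02, -0.05 to 0.01), width (-0.08, -0.19 to 0.02) and exact palindromes (odds ratio 0.62, 0.37 to 1.04) did not pass the test against downstream peaks, and each interval included no difference.

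Within the upstream group the motif share did not fall steadily with distance. It was 58.2% (49.7 to 66.2%) at 150 to 199 bp, 44.7% (34.6 to 55.3%) at 200 to 249 bp and 61.4% (48.4 to 72.9%) at 250 to 299 bp. It was 65.4% (54.3 to 75.0%) at 300 to 499 bp and 60.4% (46.9 to 72.4%) at 500 to 1000 bp. The lowest share was thus that of the band next to the innermost one, and its interval overlapped with those of the other 4 bands. Peaks at 150 to 300 bp held the motif in 151 of 276 cases (54.7%) and those farther out in 83 of 131 (63.4%), an odds ratio of 0.70 (0.46 to 1.07) that did not pass Fisher's exact test (adjusted p = 0.169). Median enrichment was 10.3-fold in the nearer and 9.54-fold in the farther peaks, a log2 difference of 0.10 (-0.05 to 0.25, n = 276 and n = 131, adjusted p = 0.240).

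**Figure D4:**
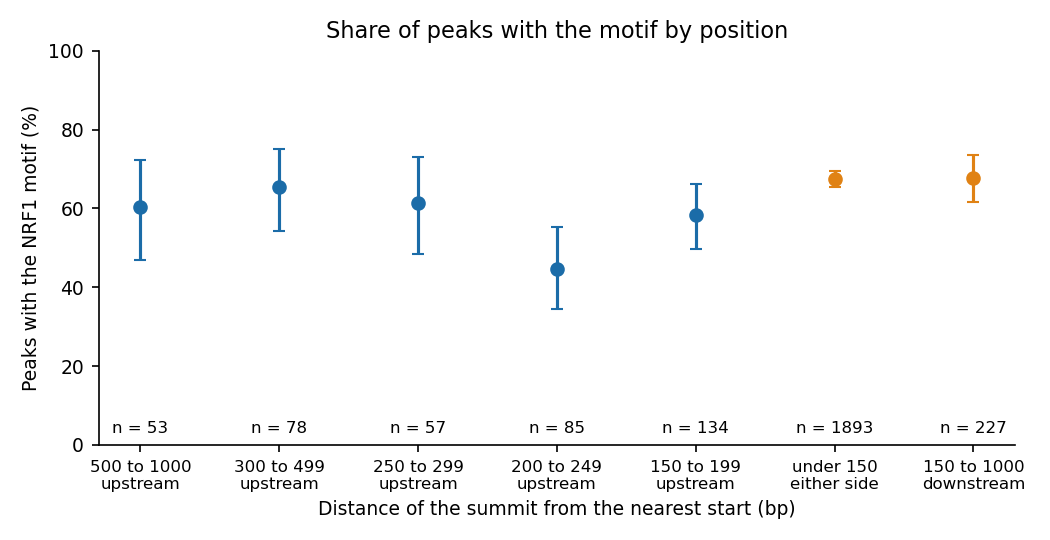
Share of peaks with the motif (vertical axis, %, with Wilson 95% intervals) by distance of the summit from the nearest start in bp, with 5 bands of upstream peaks in blue, and start-proximal and downstream peaks in orange. The band of 200 to 249 bp is lowest at 44.7%, and the others lie between 58.2% and 67.8%.

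Other promoter motifs were looked for as fixed letters, on either strand of the same windows, and are described without a test. CCAAT, the box bound by NF-Y, was in 26.0% (22.0 to 30.5%) of upstream, 22.0% (20.2 to 24.0%) of start-proximal and 15.9% (11.7 to 21.2%) of downstream peaks. The windows 240 bp upstream of all known starts held it in 23.9%, so its share upstream was near that background. These windows, used below for each motif, were not matched to the peaks for GC content or CpG ratio. The part of composition in the contrasts with them was not tested. GGGCGG, the GC box of the Sp factors, was in 61.7% (56.9 to 66.3%) of upstream peaks, 66.9% of start-proximal peaks and 19.6% of the windows of all starts. CCGGAAG, the ETS-factor site, was in 7.62% (5.42 to 10.6%) of upstream peaks against 16.6% (15.0 to 18.3%) of start-proximal ones and 3.13% of the windows. Of the motifs searched, the ETS site showed the largest ratio between start-proximal and upstream shares among those found in over 5% of upstream peaks.

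CACGTG, the E-box, was in 8.11% of upstream and 8.51% of start-proximal peaks, with 3.67% in the windows of all starts. ATGGCGGC, part of the YY1 site, was in 2.95% and 4.75%, with 0.769% in the windows. TGACGTCA, the cAMP response element, was in 2.46% and 2.75%, with 0.405% in the windows. The glucocorticoid response element, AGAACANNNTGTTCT with at most 2 mismatches, was searched because the study also mapped the glucocorticoid receptor. It was in 2 of 407 upstream peaks (0.491%, 0.135 to 1.77%) and 3 of 1893 start-proximal peaks (0.158%), against 1.24% of the windows. No match says only that these letters are absent from the window.

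**Figure D5:**
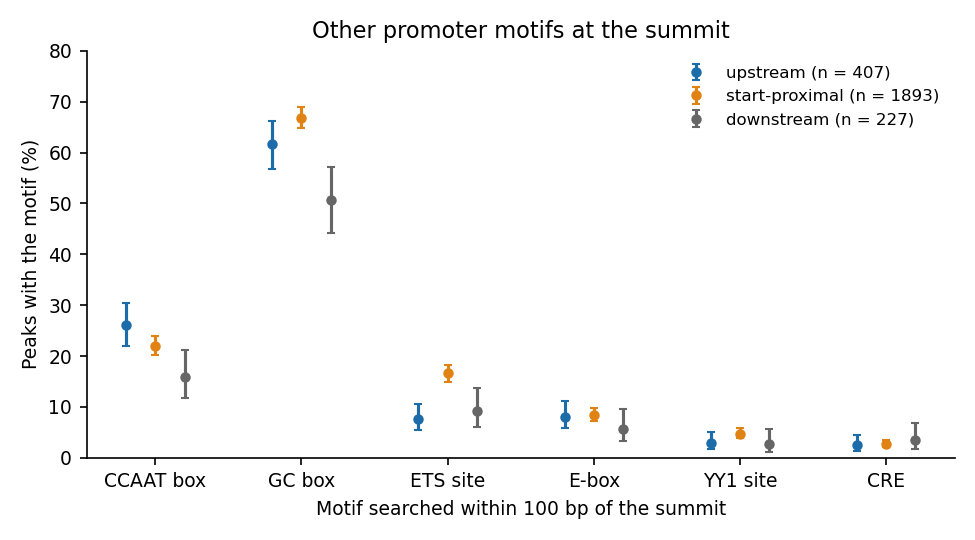
Share of upstream (blue), start-proximal (orange) and downstream (grey) peaks that hold each of 6 other motifs within 100 bp of the summit (vertical axis, %, with Wilson 95% intervals). The ETS site is in 7.62% of upstream and 16.6% of start-proximal peaks, and the GC box is in over 50% of all 3 groups.

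Genes of oxidative phosphorylation, for which NRF1 is best known, gave 5 of the 407 peaks. Of 113 respiratory chain genes, 5 (4.42%) had an upstream peak and 45 (39.8%) a peak anywhere in a promoter, beside 1.81% and 13.4% of all protein-coding genes. Ndufa13 (chr8:69903104-69903554), a subunit of complex I, had the strongest at 29.5-fold, 774 bp upstream, with an exact palindrome centred 778 bp upstream. Its summit lay in an exon of a known transcript. Cox7a2l, an assembly factor of respiratory supercomplexes, had 22.8-fold at 262 bp without the motif. The other 3 encode subunits of the ATP synthase. Atp5j had 8.02-fold at 662 bp with an exact palindrome, Atp5l had 5.70-fold at 159 bp with 1 copy, and Atp5d had 5.22-fold at 838 bp with none.
Cox7a2l (chr17:83514570-83514619, minus strand): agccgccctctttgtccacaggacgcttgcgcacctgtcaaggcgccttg
Atp5j (chr16:84836293-84836342, minus strand): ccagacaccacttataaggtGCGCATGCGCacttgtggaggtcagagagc

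These windows come from GRCm38.p6, with the copy of Atp5j in capitals and the window of Cox7a2l centred on its summit. They are shown because a strong peak without the motif and a weaker one with the exact palindrome stood at genes of the same pathway.

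The lists of the mitochondrial ribosome, import and carriers gave 1 upstream peak each or none, which lists of their size cannot tell from the 1.81% of all protein-coding genes. Of 78 genes of the mitochondrial ribosome, 26 (33.3%, beside 13.4% of all protein-coding genes) had a promoter peak and 1 (1.28%) an upstream one, Mrps14 (9.67-fold, 168 bp). Of 25 import genes, 1 (4.00%) had one, Timm13, a chaperone of the intermembrane space (10.7-fold, 159 bp, 1 copy). None of 47 Slc25 carriers had an upstream peak, while 6 (12.8%, near the 13.4% of all protein-coding genes) had one elsewhere in a promoter. Of 36 aminoacyl-tRNA synthetase genes, cytosolic and mitochondrial, 12 (33.3%) had a promoter peak and 1 (2.78%, near the 1.81% background) an upstream one. It was that of Tars, the cytosolic threonyl-tRNA synthetase, with 9.39-fold at 187 bp.

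Ubiquitin genes were spread over the enzyme classes, and the share of all protein-coding genes with an upstream peak, 1.81%, is the background for each list. Of 37 ubiquitin-conjugating enzymes, 4 (10.8%) had an upstream peak, and their enrichments were 12.0-fold for Ube2j2, 7.29-fold for Ube2s, 6.73-fold for Ube2e2 and 5.74-fold for Ube2r2. Of 56 ubiquitin-specific proteases, 4 (7.14%) had one, namely Usp38 (23.1-fold), Usp36 (6.88-fold), Usp42 (5.01-fold) and Usp34 (4.57-fold). Only Usp38 and Ube2r2 of these 8 held the motif. Of 77 F-box genes, which encode substrate receptors of SCF ligases, 2 (2.60%, near the background) had one. Fbxo5 had 19.0-fold at 561 bp and Fbxw11 had 13.9-fold at 186 bp, each with 1 copy. Of 83 Rnf ligase genes, 4 (4.82%) had an upstream peak by a protein-coding start, led by Rnf130 with 18.1-fold at 381 bp and followed by Rnf5 (8.52-fold), Rnf138 (8.18-fold) and Rnf126 (5.36-fold). Rnf44 was reached through a noncoding transcript. Of 68 Trim genes 1 (1.47%, near the background) had one, Trim39, at 10.4-fold with an exact palindrome.

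Of 51 proteasome genes, 12 (23.5%) had a promoter peak and none an upstream one, beside 13.4% and 1.81% of all protein-coding genes, and so short a list cannot tell 0 from 1.81%. Of 39 autophagy genes, 17 (43.6%) had a promoter peak and 2 (5.13%) an upstream one, Atg14, a subunit of the PI3-kinase complex that starts autophagosome formation (11.5-fold, 172 bp, no copy), and Atg2a, a lipid transfer protein (7.48-fold, 167 bp, 1 copy). Catabolic loci were taken as those that the study displays, a list chosen on its own data, so counts over them are no independent evidence. Of these 23 loci, 15 (65.2%) had a promoter peak and 2 an upstream one. Foxo3, a forkhead factor that activates atrophy genes, had 17.3-fold at 152 bp, and its copy lay 161 bp upstream. Ddit3, the stress-response factor CHOP, had 15.5-fold at 246 bp, with its copy 329 bp upstream and 83 bp from the summit.
Foxo3 (chr10:42276831-42276880, minus strand): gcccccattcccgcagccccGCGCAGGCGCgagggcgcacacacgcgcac
Ddit3 (chr10:127290439-127290488, plus strand): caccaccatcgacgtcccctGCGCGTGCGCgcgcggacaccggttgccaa

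Both windows are from GRCm38.p6, along the gene, with the copy in capitals. They are given since these were the only members of that list of 23 loci in the upstream group. The list does not hold every locus that the study displays. Rap2b, displayed as an example of another kind, was outside it and had an upstream peak of 8.52-fold at 522 bp without the motif. A GENCODE transcript on the same strand starts within 150 bp of the summit at Foxo3, and a predicted one on the opposite strand at Ddit3.

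Genes of chromatin and RNA were also found. Of 71 genes for histone methylation and deacetylation, 6 (8.45%) had an upstream peak and 29 (40.8%) a promoter peak, beside 1.81% and 13.4% of all protein-coding genes. The deacetylases were Hdac6 (15.7-fold), Hdac2 (12.6-fold) and Hdac4 (7.29-fold), of which only Hdac4 held the motif. The demethylases were Kdm2a (14.5-fold), Kdm5c (12.5-fold) and Kdm3a (12.0-fold), and each of them held it. Of 106 genes in a list of splicing factors matched by symbol, 7 (6.60%) had an upstream peak and 36 (34.0%) a promoter peak. Sf1, the branch-point binding protein, had 28.4-fold. U2af2, the large subunit of the U2AF splice-site factor, had 16.2-fold at 812 bp. The others named from this list were Snrpb2 (8.19-fold), Prpf40b (7.70-fold), Rbm15b (6.08-fold) and Lsm14b (13.5-fold), which entered by its symbol and encodes a cytoplasmic protein of translational control rather than a splicing factor.

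Of 56 genes in a list of translation initiation factors matched by symbol, 3 (5.36%) had an upstream peak and 17 (30.4%) a promoter peak. The upstream peaks were those of Eif5a, the translation factor named above, Eif3h (16.0-fold) and Eif3j1 (11.4-fold), the last without the motif. Rps23 (9.21-fold) was the only one of 83 cytosolic ribosome genes (1.20%) and Ddx39a (11.4-fold) the only one of 53 RNA helicase genes (1.89%). Both shares are near the 1.81% of all protein-coding genes. A promoter peak was found at 22 (26.5%) and 14 (26.4%) of the genes in these lists, beside 13.4% of all protein-coding genes. Among genes of DNA replication, Pola1, the catalytic subunit of polymerase alpha, had a peak of 5.09-fold at 254 bp with 1 copy. Of 156 genes in a list of Rab, Vps and coat genes there were 4 (2.56%), with Rab8a (13.1-fold), Rab1a (9.98-fold), Sec61a1 (8.58-fold) and Vps26c (4.81-fold). Sec61a1 entered by its symbol and encodes the channel of the endoplasmic reticulum translocon, not a coat protein. Of 141 centrosome and cilium genes there were 3 (2.13%), with Cep120 (13.9-fold), Cep85 (9.87-fold) and Ift27 (5.72-fold).

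Zinc finger genes were near the background, with 6 of 395 (1.52%), led by Zfp318 (14.8-fold) and Zfp740 (13.1-fold). The others were Zfp658 (8.27-fold, an exact palindrome), Zfp787 (8.27-fold), Zfp395 (7.97-fold) and Zfp512b (7.71-fold). None of 62 sarcomere genes had an upstream peak and 5 (8.06%) had a promoter peak, beside 1.81% and 13.4% of all protein-coding genes, and a list of this size is too short to tell 0 from that background. None of 1104 olfactory receptor genes, known mainly for odorant sensing in the nose, had a peak of either kind. The list holds sites of binding and not expression, so it does not itself check the tissue label.

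The 25 peaks nearest to a noncoding start had a median of 6.89-fold, and 14 (56.0%) held the motif. After B330016D10Rik the strongest were those of Scarna17, a small Cajal body RNA, with 22.9-fold at 354 bp, and Gm14966 with 20.6-fold at 845 bp. The peak of Scarna17 also lies in the promoter of Acaa2, a thiolase of mitochondrial fatty acid oxidation. Chaserr, a long noncoding RNA that regulates its neighbour Chd2, had 13.1-fold at 165 bp with 1 copy. Mirlet7i, which encodes a microRNA of the let-7 family, had 6.08-fold at 772 bp without the motif. Genes named in this paragraph were chosen after their values were seen, except B330016D10Rik.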

How the data were processed

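NRF1 ChIP-seq peaks of wild-type mouse skeletal muscle were taken from 1 deposited list. As the methods of the study state, the authors mapped reads to mm10 with Bowtie 1.1.2, kept uniquely mapped reads, removed reads in blacklisted regions (the blacklist named is of a human build) and called peaks with MACS2 2.2.7.1 against input DNA. The methods name the broad option, whereas the list is laid out as narrow peaks with a summit each. The authors deposited for each peak a fold enrichment over the local background (a ratio), a -log10 p-value, a -log10 q-value and an integer display score, and the score and the p-value were not used. Unique mapping lowers signal in repeats, fold enrichment depends on the depth of the control, and a deeper library yields more weak peaks.

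Transcription starts came from RefSeq GRCm38.p6 (45756 known transcripts, 31603 starts), and sequence from the same assembly. Motif shares were compared by two-sided Fisher's exact test. Log2 fold enrichment, log2 width, GC content and CpG ratio were compared in a linear model over all 3226 peaks with HC3 standard errors (statsmodels 0.14.6, scipy 1.17.1, Python 3.11.15). The p-values of the 15 tests were Benjamini-Hochberg adjusted and called at 0.05. Peaks close to each other and paralogous promoters are not independent, which the p-values do not take into account. The scripts were tested on simulated data. Named genes were the nearest genes of the 20 strongest and 5 weakest peaks, the 5 nearest to and farthest from the start, the 5 with most copies, and up to 6 per list for 24 gene lists matched by symbol, apart from 1 result that is not reported here. The members, the lists and the tests were chosen with earlier results of these data known. Alternatives changed the distance limits, annotation, summit, motif, window, scale and filters on peaks. No gene list was tested, and no values of the other library were read directly. If that library was the input, the deposited fold enrichments and q-values were computed against it.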

Additional observations from a re-analysis of the deposited data

How the results depend on the processing

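Of 150 alternatives over 10 tested results, 128 kept the direction and the side of the threshold, and of 24 alternatives over the counts of peaks and genes, 20 stayed within 1.5 times the count. The lower motif share upstream than at start-proximal peaks held under 14 of 16, and the higher enrichment of upstream peaks with the motif under 18 of 18. The lower CpG ratio held under 15 of 15. With an inner limit of 100 bp there were 657 upstream peaks at 622 protein-coding genes, and 227 at 205 genes when peaks with a predicted RefSeq or GENCODE start under 150 bp from the summit were left out, an alternative chosen after seeing the data. Against start-proximal peaks, the odds ratio of the motif share was 0.74 with no mismatch (Fisher's exact test, adjusted p = 0.185) and 0.65 with up to 2 mismatches (exact, adjusted p = 0.0505). The p-values of each alternative were adjusted with the other tests run under it. The adjusted p with no mismatch therefore differs from the 0.169 given for the same Fisher's exact test among the main tests. The difference in log2 fold enrichment was -0.057 with the inner limit of 100 bp and -0.038 with the peak centre, and the GC difference was -0.91 points in windows of 200 bp on each side of the summit, and none of these 3 passed the test. Against downstream peaks, the odds ratio of the motif share no longer passed at 0.82 (inner limit 100 bp), 0.71 (inner limit 200 bp), 0.65 (fold enrichment of at least 5), 0.80 (GENCODE starts), 0.84 (peak centre), 0.62 (no mismatch), 0.58 (2 mismatches) and 0.72 (motif within 50 bp). Its adjusted p ranged from 0.0118 to 0.439 by Fisher's exact test over all 16 alternatives. The log2 fold enrichment difference from downstream peaks passed the test at 0.19 (inner limit 100 bp), 0.15 (outer limit 500 bp), 0.16 (peak centre) and 0.16 (motif as a covariate). Among the differences that had not passed the test, 3 changed sign: log2 width against start-proximal peaks was 0.0073 with an inner limit of 200 bp, 0.0053 with q-values of at most 1e-05 and 0.063 with the peak centre; the odds ratio of the motif share between nearer and farther upstream peaks was 1.04 with no mismatch; and their log2 fold enrichment difference was -0.042 without the peaks near other annotated starts. The cause of these shifts was not tested. No paired analysis was possible because the peaks form 1 list with no second set of values (the replicate numbers of the libraries only follow accession order), so leaving out a library could not be tried either. Depth is unknown and limits how many weak upstream peaks the list can hold.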

Other observations

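In the 28 upstream promoter peaks with 2 or more copies of the motif, neighbouring copies stood 10 to 154 bp apart, counted from start to start, and no spacing was found in more than 3 pairs. Over the numbered chromosomes and X, the share of upstream peaks among the peaks of a chromosome ran from 7.95% on chromosome 6 (12 of 151) to 16.7% on chromosome 19 (17 of 102), and chromosome X gave 16.5% (15 of 91), while the single peak on Y and the 3 on the mitochondrial chromosome were not in the upstream group. The windows of only 2 of the 407 upstream peaks were mostly repeat-masked sequence, and both held the motif, with a median enrichment of 7.44-fold. The strong peaks of Sf1 (28.4-fold) and Gm14966 (20.6-fold) have summits at chr19 positions 6363473 and 6364555, so neighbouring members can belong to 1 locus.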
